A study of Mus musculus with 12 samples.

Results

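The proteasome genes described here are those whose symbol in the array annotation starts with Psma, Psmb, Psmc, Psmd, Psme, Psmf or Psmg and a number, without the immunoproteasome genes Psmb8, Psmb9 and Psmb10. The rule found 63 of 25697 probes, which stand for 42 of the 16593 genes on the array. By their roles 38 of these genes (57 probes) fall into 7 groups. The groups are the α ring and the β ring of the 20S core, the ATPases and the non-ATPase subunits of the 19S cap, the assembly chaperones of the 19S cap, the assembly chaperones of the 20S core, and the activators Psme3 and Psme4. Psme1 and Psme2, the genes of the PA28 activator, had 3 probes and are given apart. Psmc3ip and Psme3ip1, with 3 probes, share the pattern by name only and encode no subunit. Of the 38 genes 36 were tested, since the only probes of Psma1 and Psma6 were above background on 0 of 12 arrays. The same held for a further probe each of Psma3, Psmb2, Psmd5 and Psmd11. All 36 tested genes were measured by a probe that was above background on all 12 arrays.

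The cells were lineage-negative bone marrow cells of C57Bl/6J mice, grown in StemSpan medium with 15% serum, 10 ng/mL IL-3, 50 ng/mL SCF and 50 ng/mL FLT3 ligand. RE cells were transduced for 24 h with the retroviral vector MigR1 carrying HA-tagged RUNX1-ETO, the fusion transcription factor of the t(8;21) translocation in acute myeloid leukaemia, and Mig cells with MigR1 alone. RE+GM and Mig+GM cells were transduced in the same ways and then kept with 10 ng/mL of the myeloid growth factor GM-CSF for 24 h, while RE and Mig cells were kept without it. GFP+, lineage-negative, c-Kit+ cells were then sorted, after 48 h of RUNX1-ETO expression in RE and RE+GM cells, and their total RNA was hybridized to Illumina Mouse Ref-8 BeadChips. Each of the 4 groups had 3 arrays. The sample titles write AE for the fusion and the descriptions RE. The fusion came from a retroviral vector in a sorted, mixed population, and the labels do not say how many mice or cultures stand behind the replicate numbers. The p-values thus rest on array-to-array spread that could be technical in part, and the number of arrays limits their precision.

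The proteasome degrades proteins that carry ubiquitin chains. Its 20S core is a barrel of outer α rings and inner β rings, and the β subunits Psmb5, Psmb6 and Psmb7 hold the cutting sites. The 19S cap binds ubiquitin chains, removes them and unfolds the protein with a ring of ATPases. Dedicated chaperones build the core and the cap and then leave. Interferon induces the immunoproteasome genes Psmb8, Psmb9 and Psmb10, whose products replace the 3 constitutive catalytic subunits, and the PA28 genes, whose product opens the core without the 19S cap.

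Between 49.3% and 62.5% of probes were above background on an array, both on RE arrays, and replicates of a group correlated by 0.972 to 0.994 across units. As a check of the labels, the brightest probe of Runx1t1, which encodes ETO, was above background on 3 of 3 RE, 0 of 3 Mig, 3 of 3 RE+GM and 0 of 3 Mig+GM arrays. Some markers of other cell types moved with the fusion, while several of the lists held few calls or calls in both directions. The calls of each list stand beside those of all units, 20.2% lower and 17.6% higher in RE cells and 23.4% lower and 18.8% higher in RE+GM cells. The summed linear signal of 6 of 8 listed erythroid markers was 1326 to 2323 on RE arrays, 9997 to 11236 on Mig arrays, 951 to 1804 on RE+GM arrays and 6724 to 9740 on Mig+GM arrays, and 3 of the 6 were called lower and 1 higher in each comparison of the fusion. For 5 of 8 macrophage and monocyte markers it was 3317 to 5715, 662 to 1842, 5173 to 8517 and 1196 to 2708 in the same order of groups, with 2 called higher in RE cells, 1 in RE+GM cells and 0 lower. For 7 of 7 mast cell and basophil markers it was 48301 to 61095, 28139 to 37887, 47423 to 55447 and 14138 to 23895, but these genes did not move as 1. In each comparison 3 were called higher (Cpa3 2.02 and 2.68, Hdc 1.40 and 2.14, Tpsb2 0.91 and 0.62, as log2 changes in RE and in RE+GM cells) and 2 lower (Prss34 -3.05 and -3.35, Mcpt8 -1.84 and -2.38). The 7 of 8 neutrophil markers on the array summed to 233 to 5877, 1087 to 30052, 414 to 5366 and 1565 to 43096, a wide range within each group, with 1 called higher and 0 lower in each comparison. For 3 of 7 T and NK cell markers the sums were 394 to 1164, 1755 to 2507, 353 to 491 and 1372 to 1721, with 1 called lower in each comparison, while Cd3g, Cd4 and Cd8a did not pass the background filter. For 3 of 6 B cell markers they were 710 to 956, 249 to 271, 985 to 1177 and 246 to 314, with Cd79a and Pax5 not passing. Of these 3, Cd79b was called higher (1.98 and 2.24) and Vpreb1 lower (-0.85 and -0.81) in both comparisons. For 5 of 6 markers of endothelium and stroma they were 904 to 2887, 637 to 802, 3565 to 5319 and 660 to 918, with 2 called higher in RE cells and 3 in RE+GM cells. For 5 of 5 megakaryocyte markers they were 1900 to 3574, 2419 to 4691, 4329 to 7357 and 1652 to 2850, with 3 called lower in RE cells and 2 lower and 1 higher (Pf4, 1.52) in RE+GM cells. For 4 of 7 dendritic cell markers 0 were called in RE cells and 1 was higher in RE+GM cells, while Flt3, Xcr1 and Cd209a did not pass. Of the 6 listed progenitor genes 4 passed and Kit was not analysed here. Their sums were 2467 to 3007, 2024 to 3743, 2176 to 2806 and 1408 to 2615, and Cd34 (1.97 and 1.46) and Cd48 (0.78 in RE cells) were called higher in both comparisons, while Gata2 (-0.62 and -0.17) and Myb (-0.08 and -0.11) were not called. The part of these cell types in the proteasome results was not tested, and fewer cells of a type and less RNA per cell cannot be told apart in these bulk samples.

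Without GM-CSF, RE cells had lower transcript levels than Mig cells for 14 of the 36 constitutive proteasome genes (38.9%) and higher levels for 1, Psmb6 (limma, adjusted p under 0.05). Of all 12102 units tested (11120 genes and 982 unnamed probes) 20.2% were called lower and 17.6% higher, 37.8% in either direction. The median log2 change of the proteasome genes was -0.28, against -0.04 over all units. With GM-CSF, 18 of the 36 genes (50%) were called lower and 0 higher in RE+GM cells, against Mig+GM cells, and 19 had an unadjusted p under 0.05, these 18 and Psmb1. Of all 12102 units 5794 had an unadjusted p under 0.05. The background was 23.4% of all units lower, 18.8% higher and 42.1% in either direction, and the median was -0.37, against -0.05 over all units. The falls were uneven across the complex. By role group the median change was lowest for the 3 assembly chaperones of the 20S core, whose levels in RE cells were 0.447 to 0.594 of those in Mig cells, and nearest to 0 for the β ring (-0.06 and -0.04).

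The same 11 of 36 genes were called lower in both comparisons, where 2062 of all 12102 units were. These 11 were Psma4, Psmb3, Psmc1, Psmc3, Psmd7, Psmd12, Psmd14, Psmg1, Psmg2, Psmg3 and Psme3. Called lower in RE cells and not in RE+GM cells were Psmd5, Psmd6 and Psmd11, and called lower in RE+GM cells and not in RE cells were Psmb5, Psmc2, Psmc4, Psmd1, Psmd9, Psmd13 and Psme4. For these 10 genes the difference between the comparisons did not pass the test of the interaction. Of all 12102 units 375 were called lower in RE cells only and 765 in RE+GM cells only. The RE arrays lay below all Mig arrays for 17 of 36 genes and above them for 2, where all units gave 24.8% below and 21% above. The RE+GM arrays lay below all Mig+GM arrays for 18 and above for 2, where all units gave 29.6% below and 22.8% above.

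**Figure D1:**
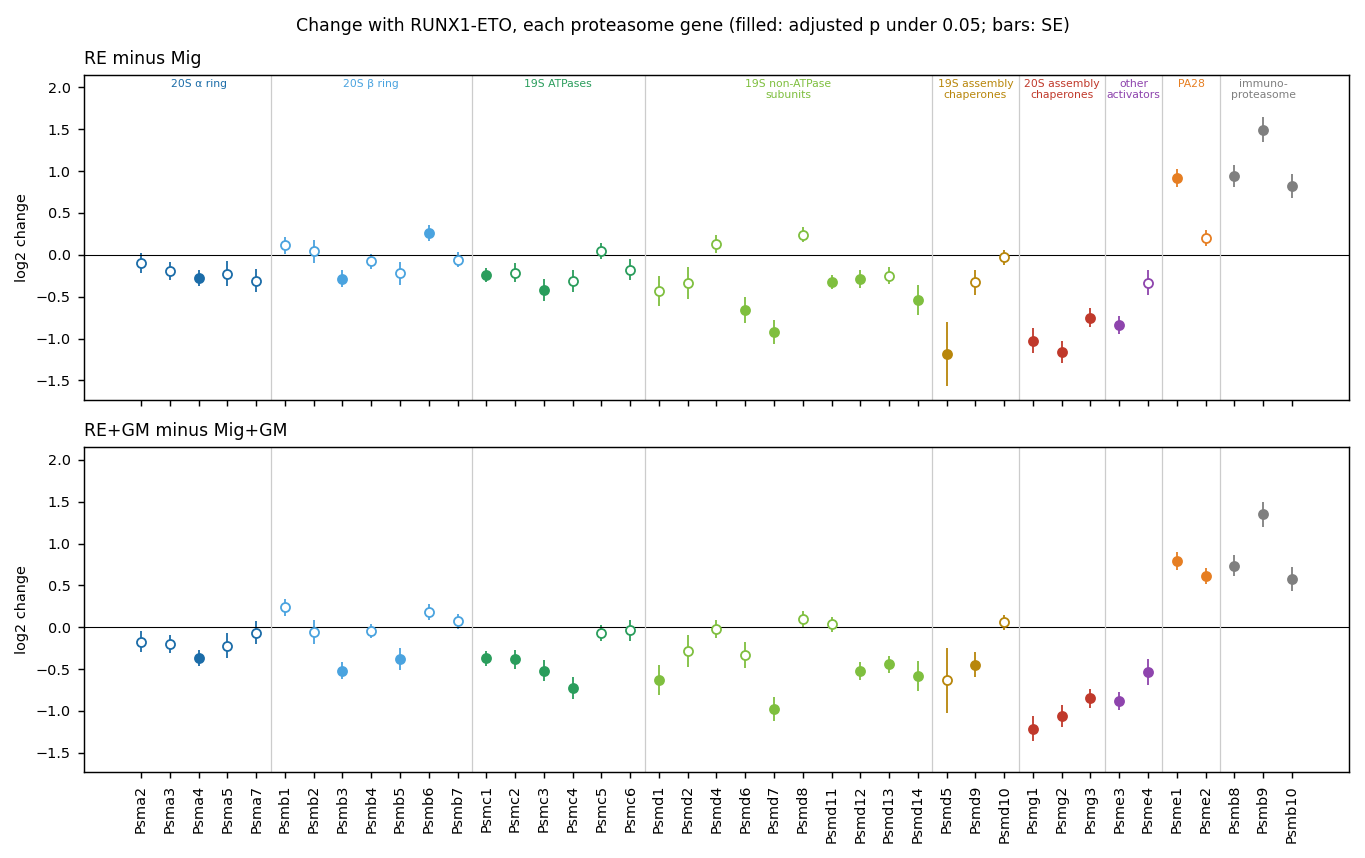
Log2 change of each proteasome gene in RE minus Mig cells (upper panel) and RE+GM minus Mig+GM cells (lower panel), with bars of 1 SE of the limma fit and filled points for an adjusted p under 0.05. The 20S assembly chaperones Psmg1, Psmg2 and Psmg3 lie between -1.21 and -0.75 in both panels, while Psme1, Psmb8, Psmb9 and Psmb10 lie at 0.57 or higher.

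How many genes passed the test without GM-CSF depended on the scaling of the arrays and on single arrays. Before normalization the mean signal was 318, 338 and 429 on the RE arrays, against 597, 431 and 449 on the Mig arrays. The part of this difference in the counts was not tested. Scaling the arrays to a common median in place of quantiles gave 30 genes lower and 0 higher, with a median of -0.67, where 28.5% of all units were lower and 10.2% higher, and it also turned the calls over all units to 1236 higher and 3453 lower, against 2128 higher and 2442 lower with quantiles. The authors' own normalized values gave 8 lower and 1 higher, with a median of -0.14, where 17.1% of all units were lower. Leaving out RE replicate 2 or Mig replicate 2 left 8 of 36 lower, where 17.4% and 16.4% of all units were, and leaving out RE replicate 3 or Mig replicate 1 left 9, where 18.3% and 18.5% were. These 8 and 9 of 36 genes are near the shares of all units, so that under the authors' values or without 1 of these arrays the count without GM-CSF is not a result about the proteasome genes. The calls of Psmd7, Psmg1, Psmg2, Psmg3 and Psme3 in RE cells held in every alternative tried, a minimum change of 1.5-fold included. That of Psmd6 held for its tested probe, while its other kept probe was not called in RE cells (-0.36, adjusted p = 0.143) or in RE+GM cells (-0.43, adjusted p = 0.0763) with all kept probes as units. With GM-CSF the count was 7 at a minimum change of 1.5-fold, where 15.1% of all units were lower. These 7 of 36 are also near the share of all units, so that at this minimum the count is not a result about the proteasome genes. The count with GM-CSF was 12 under median scaling, where 19.4% of all units were lower, 13 with the authors' values, where 20.3% were, and 14 to 19 under the other alternatives. The calls of Psmc4, Psmd7, Psmg1, Psmg2, Psmg3 and Psme3 in RE+GM cells held in all of them, and those of Psmb3 and Psmc3 in all but the minimum change. Median scaling ended the calls of Psma4, Psmb5, Psmc1, Psmc2, Psmd9 and Psmd12 with GM-CSF, and the authors' values ended those of Psma4, Psmb5, Psmc2, Psmd9 and Psmd13. Leaving out 1 array added calls of Psmd1 (-0.55) and Psmd9 (-0.54) without RE replicate 1, of Psmd8 (0.32) without RE replicate 3 and of Psme4 (-0.45) without Mig replicate 3, all in RE cells, and of Psmd6 (-0.48) in RE+GM cells without Mig+GM replicate 3.

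The chaperones of the 20S core had the lowest median change of the 7 role groups. Psmg1 and Psmg2 encode partners in a dimer on which the α ring is assembled, and Psmg3 acts at the same stage in another dimer. Of these 3 genes 3 were lower in each comparison, with medians of -1.03 and -1.06, where 20.2% and 23.4% of all units were lower. The group does not hold Psmg4, which was not analysed here, or Pomp, the maturation factor of the 20S core. Pomp is given below with the helpers and was called higher, a call that median scaling ended in RE cells. Psmg1 measured 9.25, 8.86 and 8.84 on the RE arrays, against 9.80, 10.08 and 10.14 on the Mig arrays (log2 normalised signal, replicates 1 to 3). It measured 8.76, 8.61 and 8.97 on the RE+GM arrays, against 9.80, 10.02 and 10.18 on the Mig+GM arrays. All 6 arrays with the fusion lay below all 6 without it. Psmg1 fell by 1.03 on the log2 scale in RE cells (SE 0.15, limma adjusted p = 0.000211), to 0.49 of the Mig level, and by 1.21 in RE+GM cells (SE 0.15, adjusted p = 4.49e-05).

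Psmg2 measured 9.11, 9.07 and 8.93 in RE cells, against 10.28, 10.07 and 10.24 in Mig cells. With GM-CSF it measured 9.06, 8.76 and 8.97 in RE+GM cells, against 9.73, 10.28 and 9.96 in Mig+GM cells, so that again no array with the fusion reached the lowest array without it. The fall was 1.16 (SE 0.13, adjusted p = 4.46e-05) in RE cells and 1.06 (SE 0.13, adjusted p = 6.02e-05) in RE+GM cells, and the other probe of Psmg2 was also called lower in both comparisons. Psmg3, given in full because it completes the group, measured 9.47, 9.40 and 9.27 in RE cells, against 9.93, 10.09 and 10.36 in Mig cells. It measured 9.27, 9.26 and 9.36 in RE+GM cells, against 10.05, 10.24 and 10.15 in Mig+GM cells. Its groups did not overlap either, and it fell by 0.75 (SE 0.11, adjusted p = 0.000234) and by 0.85 (SE 0.11, adjusted p = 6.92e-05).

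**Figure D2:**
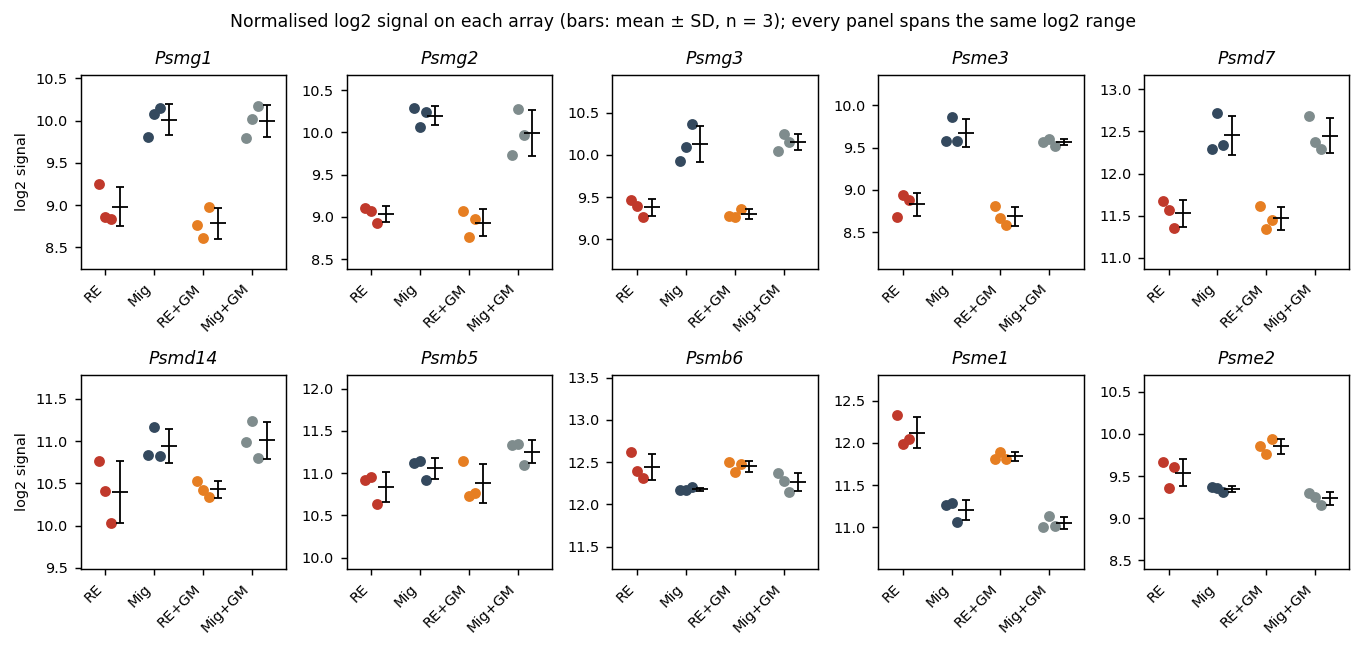
Normalised log2 signal of 10 proteasome genes on each array, 1 point per array, with the mean and SD of the 3 arrays of each group (RE, Mig, RE+GM, Mig+GM from left to right). In Psmg1, Psmg2, Psmg3, Psme3 and Psmd7 all RE and RE+GM points lie below all Mig and Mig+GM points, and in Psme1 they lie above them.

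The promoters of the 2 chaperone genes that the RefSeq promoter table holds are shown because these genes moved together. Each window runs from 250 bases before the transcript start to 50 after it (RefSeq, GRCm38.p6), and the capitals mark the ETS core CCGGAA, the only one of 5 searched motifs found in either window. Psmg1 lies at chr16:95990911-95991210 on the minus strand and Psmg3 at chr5:139826845-139827144 on the minus strand.
Psmg1: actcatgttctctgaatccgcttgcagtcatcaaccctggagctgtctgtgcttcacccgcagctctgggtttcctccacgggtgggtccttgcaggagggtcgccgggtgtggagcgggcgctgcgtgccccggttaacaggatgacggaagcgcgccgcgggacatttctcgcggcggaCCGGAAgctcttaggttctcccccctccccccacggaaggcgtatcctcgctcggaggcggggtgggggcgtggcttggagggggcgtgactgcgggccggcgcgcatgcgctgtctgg
Psmg3: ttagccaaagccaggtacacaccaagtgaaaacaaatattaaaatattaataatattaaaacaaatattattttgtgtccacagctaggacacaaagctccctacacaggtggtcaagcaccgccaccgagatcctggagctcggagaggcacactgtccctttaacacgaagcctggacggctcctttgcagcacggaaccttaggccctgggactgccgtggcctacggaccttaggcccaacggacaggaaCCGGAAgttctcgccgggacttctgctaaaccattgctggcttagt
The match begins 69 bases before the start in Psmg1 and 4 bases after it in Psmg3.

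The activators Psme3 and Psme4 also stood lower. Psme3 encodes PA28γ, a nuclear activator that acts without ubiquitin, and Psme4 encodes PA200, an activator that caps the core in the nucleus. Psme3 measured 8.67, 8.94 and 8.88 in RE cells, against 9.58, 9.86 and 9.58 in Mig cells, and 8.81, 8.67 and 8.58 in RE+GM cells, against 9.57, 9.60 and 9.52 in Mig+GM cells. The groups did not overlap in either comparison. Psme3 fell by 0.84 (SE 0.11, adjusted p = 7.67e-05) in RE cells and by 0.88 (SE 0.11, adjusted p = 3.75e-05) in RE+GM cells. Psme4 measured 10.45, 10.67 and 10.26 in RE cells, against 10.82, 11.01 and 10.55 in Mig cells, groups that overlap, with a change of -0.33 (SE 0.15, adjusted p = 0.112). The fit that pairs arrays by replicate number called this change lower (adjusted p = 0.00322 with the replicate block). It measured 10.14, 10.31 and 9.97 in RE+GM cells, against 10.68, 10.87 and 10.47 in Mig+GM cells, where it fell by 0.53 (SE 0.15, adjusted p = 0.0135). That call was lost without RE+GM replicate 3 (-0.45) or Mig+GM replicate 2 (-0.43).

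The promoter of Psme3 lies at chr11:101315963-101316262 on the plus strand. It is shown because Psme3 was lower in both comparisons, and the capitals mark its motif matches: CCGGAA or its reverse complement TTCCGG in 3 places, the E-box CACGTG, and ATTGG, the reverse complement of the NF-Y box CCAAT.
Psme3: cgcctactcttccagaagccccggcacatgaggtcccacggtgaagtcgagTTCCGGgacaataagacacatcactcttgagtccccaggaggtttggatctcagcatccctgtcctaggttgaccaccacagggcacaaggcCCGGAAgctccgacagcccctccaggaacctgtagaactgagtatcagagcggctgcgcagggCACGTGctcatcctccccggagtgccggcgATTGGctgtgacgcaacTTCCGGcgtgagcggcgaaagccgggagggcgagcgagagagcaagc
The matches begin 199, 107, 44 and 14 bases before the start and 3 bases after it.

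The non-ATPase subunits of the 19S cap were lower for 5 of 10 genes in RE cells and for 5 of 10 in RE+GM cells, with medians of -0.33 and -0.39. In the same comparisons 20.2% and 23.4% of all units were lower. Psmd7 encodes a lid subunit that pairs with Psmd14, the enzyme that cuts ubiquitin chains off the substrate. Psmd7 measured 11.67, 11.57 and 11.35 in RE cells, against 12.30, 12.71 and 12.34 in Mig cells, and 11.61, 11.34 and 11.45 in RE+GM cells, against 12.68, 12.37 and 12.29 in Mig+GM cells. Its change was the largest among the 10 non-ATPase genes in both comparisons, and the groups did not overlap. The fall was 0.92 (SE 0.14, adjusted p = 0.000332) in RE cells and 0.98 (SE 0.14, adjusted p = 0.000157) in RE+GM cells, and both of its probes were called in both comparisons. Its partner Psmd14 fell by 0.54 (SE 0.18, adjusted p = 0.0295), to a mean of 10.40 ± 0.37 in RE cells, against 10.94 ± 0.20 in Mig cells (SD, n = 3), and by 0.58 (SE 0.18, adjusted p = 0.0178) in RE+GM cells. The call without GM-CSF was lost without RE replicate 2 (-0.55), RE replicate 3 (-0.35) or Mig replicate 2 (-0.43), and the call with GM-CSF without RE+GM replicate 3 (-0.54) or Mig+GM replicate 2 (-0.47).

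Psmd6, a lid subunit, measured 7.92, 8.14 and 7.66 in RE cells, against 8.55, 8.61 and 8.55 in Mig cells, and fell by 0.66 (SE 0.15, adjusted p = 0.00496). In RE+GM cells it measured 8.33, 8.03 and 7.99, against 8.52, 8.68 and 8.14 in Mig+GM cells, groups that overlap. That change of -0.33 had an adjusted p of 0.112, and 0.046 with the replicate block. Of the other lid genes Psmd12 was called lower in both comparisons (-0.29 and -0.52), Psmd11 without GM-CSF (-0.32, SE 0.09, adjusted p = 0.0112) and Psmd13 with it (-0.44, SE 0.10, adjusted p = 0.00405). The call of Psmd11 was lost with the authors' values (-0.22, adjusted p = 0.108). The call of Psmd12 without GM-CSF (adjusted p = 0.049) was lost in most alternatives, among them the omission of any 1 Mig array. Psmd1, a scaffold of the cap's base, fell by 0.63 in RE+GM cells (SE 0.18, adjusted p = 0.0129), a call lost without Mig+GM replicate 1 (-0.50). Psmd2, the other scaffold, Psmd4, a ubiquitin receptor, and Psmd8, a lid subunit, were not called. Their changes were -0.34, 0.13 and 0.24 in RE cells and -0.29, -0.02 and 0.10 in RE+GM cells.

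The 6 ATPases of the 19S cap form the ring that unfolds substrates. In RE cells 2 of 6 were called lower, Psmc1 and Psmc3, and in RE+GM cells 4 of 6, with Psmc2 and Psmc4 added. These are 33.3% and 66.7%, where 20.2% and 23.4% of all units were lower. In so small a group 2 of 6 is near the share of all units. Psmc3 measured 10.92, 10.60 and 10.55 in RE cells, against 10.98, 11.28 and 11.07 in Mig cells, and fell by 0.42 (SE 0.13, adjusted p = 0.0214). That call was lost with the authors' normalized values (-0.30, adjusted p = 0.126) and without RE replicate 2 (-0.38), RE replicate 3 (-0.35) or Mig replicate 2 (-0.34). In RE+GM cells Psmc3 measured 10.53, 10.30 and 10.63, against 10.92, 11.13 and 10.97 in Mig+GM cells, and fell by 0.52 (SE 0.13, adjusted p = 0.00596). The groups did not overlap in either comparison. Psmc4 measured 11.81, 11.68 and 11.59 in RE cells, against 11.85, 11.99 and 12.18 in Mig cells, a change of -0.31 (SE 0.13, adjusted p = 0.0893) with no overlap. With GM-CSF the gap was wider, at 11.28, 11.39 and 11.69 in RE+GM cells, against 11.99, 12.22 and 12.34 in Mig+GM cells, a fall of 0.73 (SE 0.13, adjusted p = 0.00079).

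Psmc1 fell by 0.24 in RE cells (SE 0.09, adjusted p = 0.048), a call lost with the replicate block (adjusted p = 0.0595) and without any 1 of 9 of the 12 arrays, and by 0.37 in RE+GM cells (adjusted p = 0.00442). Psmc2 changed by -0.21 in RE cells (adjusted p = 0.182, and 0.049 with the replicate block) and fell by 0.38 in RE+GM cells (adjusted p = 0.0182), a call lost without RE+GM replicate 1 (-0.34), RE+GM replicate 2 (-0.31) or Mig+GM replicate 3 (-0.31). Psmc5 and Psmc6 were not called in either comparison. The change of Psmc5 in RE cells was 0.05 with quantiles and -0.40 under median scaling (adjusted p = 0.0443).

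The chaperones that assemble the base of the 19S cap are Psmd5, Psmd9 and Psmd10, and 1 of 3 was called lower in each comparison. With 20.2% and 23.4% of all units lower, 1 gene of 3 is not a result about the group. Psmd5 varied most between replicates of all 36 genes. It measured 6.58, 7.48 and 7.94 in RE cells, against 8.50, 8.05 and 9.03 in Mig cells, and 7.87, 7.78 and 7.90 in RE+GM cells, against 8.39, 7.83 and 9.24 in Mig+GM cells. The fall in RE cells was 1.19 (SE 0.38, adjusted p = 0.0285), with no overlap, and the call was lost without RE replicate 1 (-0.81), RE replicate 2 (-1.26), Mig replicate 1 (-1.20) or Mig replicate 3 (-0.94). With GM-CSF the groups overlapped (-0.64, SE 0.38, adjusted p = 0.22). Psmd9 measured 7.80, 7.16 and 7.16 in RE cells, against 7.65, 7.73 and 7.73 in Mig cells, where RE replicate 1 stood above all Mig arrays (-0.33, SE 0.15, adjusted p = 0.106). In RE+GM cells it measured 7.20, 7.21 and 7.24, against 7.53, 7.80 and 7.67 in Mig+GM cells, and fell by 0.45 (SE 0.15, adjusted p = 0.0291), a call lost without any 1 RE+GM array, Mig+GM replicate 2 or Mig+GM replicate 3 (-0.46 to -0.38). With all kept probes as units, the other kept probe of Psmd9 was called lower in RE cells (-0.39, adjusted p = 0.00515). Its RE arrays (6.98, 6.69 and 6.91) lay below its Mig arrays (7.20, 7.21 and 7.33). That probe was also called lower in RE+GM cells (-0.27, adjusted p = 0.0292). Psmd10 differed by -0.03 and 0.06 (SE 0.09 each).

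In the 20S core 2 of 12 genes were called lower and 1 higher in RE cells, and 3 lower and 0 higher in RE+GM cells, with medians of -0.15 and -0.12. The shares called lower, 16.7% and 25%, were near those of all units. Under median scaling 9 of the 12 were called lower in RE cells, where 28.5% of all units were, and 1 in RE+GM cells, where 19.4% were. In the α ring, which gates the entry to the core, Psma4 was the called gene. It measured 12.39, 12.45 and 12.45 in RE cells, against 12.79, 12.70 and 12.63 in Mig cells, and 12.40, 12.23 and 12.30 in RE+GM cells, against 12.72, 12.80 and 12.52 in Mig+GM cells. The groups did not overlap, and the falls were 0.28 (SE 0.09, adjusted p = 0.0304) and 0.37 (SE 0.09, adjusted p = 0.00576). The call without GM-CSF was lost with the authors' normalized values (-0.05) and without any 1 of the 3 RE arrays, Mig replicate 1 or Mig replicate 2 (-0.29 to -0.24).

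Psma7, of the same ring, measured 11.77, 11.93 and 12.13 in RE cells, against 12.07, 12.15 and 12.54 in Mig cells. The groups overlapped, and the change of -0.31 (SE 0.14) had an adjusted p of 0.107, and 0.0119 with the replicate block. With GM-CSF it measured 12.11, 12.13 and 12.27 in RE+GM cells, against 12.14, 12.12 and 12.45 in Mig+GM cells (-0.07, SE 0.14, adjusted p = 0.765). With all kept probes as units, the other kept probe of Psma7 was called lower in RE cells (-0.48, adjusted p = 0.0116). There its RE arrays (11.58, 11.63 and 11.86) lay below its Mig arrays (12.08, 12.02 and 12.41). That probe was not called in RE+GM cells (-0.20, adjusted p = 0.263). Psma2, Psma3 and Psma5 were not called, with changes of -0.10, -0.20 and -0.23 in RE cells and -0.17, -0.20 and -0.22 in RE+GM cells.

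The β ring holds the catalytic subunits. With quantiles the changes of these 3 genes differed in sign, though only Psmb6 in RE cells and Psmb5 in RE+GM cells were called. With the authors' values Psmb6 (adjusted p = 0.015) and Psmb7 (adjusted p = 0.0471) were called higher in RE+GM cells, and Psmb5 was not called. Psmb5, the chymotrypsin-like subunit, measured 10.92, 10.96 and 10.63 in RE cells, against 11.12, 11.14 and 10.91 in Mig cells, a change of -0.22 (SE 0.13, adjusted p = 0.231). It measured 11.14, 10.73 and 10.77 in RE+GM cells, against 11.33, 11.34 and 11.10 in Mig+GM cells. The groups overlapped in both comparisons, and the fall of 0.38 with GM-CSF (SE 0.13, adjusted p = 0.0401) was lost without any 1 of 6 arrays, among them RE+GM replicate 2 (-0.30) and Mig+GM replicate 2 (-0.33).

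Psmb6, the caspase-like subunit, was the gene called higher in RE cells. It measured 12.62, 12.39 and 12.32 in RE cells, against 12.17, 12.17 and 12.20 in Mig cells, with no overlap, and rose by 0.26 (SE 0.09, adjusted p = 0.0453). With the authors' normalized values the rise was 0.44 (adjusted p = 0.00403), while the sign turned under median scaling (-0.18, adjusted p = 0.318). The call was lost without RE replicate 1 (0.17), RE replicate 2 (0.29) or any 1 Mig array, and without 4 of the 6 arrays of the other comparison, through the shared estimate of the spread. In RE+GM cells it measured 12.50, 12.38 and 12.48, against 12.37, 12.28 and 12.15 in Mig+GM cells, again with no overlap (0.19, SE 0.09, adjusted p = 0.143). Psmb7, the trypsin-like subunit, measured 11.34, 11.41 and 11.52 in RE cells, against 11.47, 11.42 and 11.57 in Mig cells, and 11.65, 11.51 and 11.67 in RE+GM cells, against 11.42, 11.62 and 11.58 in Mig+GM cells. These groups overlapped (-0.06 and 0.07, SE 0.09 each), and the 3 probes of Psmb7 differed in sign.

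The promoter of Psmb6, the gene called higher in RE cells, lies at chr11:70525107-70525406 on the plus strand. Its capitals mark TGACGGAGC, a match to the antioxidant response core TGACNNNGC that begins 9 bases before the start.
Psmb6: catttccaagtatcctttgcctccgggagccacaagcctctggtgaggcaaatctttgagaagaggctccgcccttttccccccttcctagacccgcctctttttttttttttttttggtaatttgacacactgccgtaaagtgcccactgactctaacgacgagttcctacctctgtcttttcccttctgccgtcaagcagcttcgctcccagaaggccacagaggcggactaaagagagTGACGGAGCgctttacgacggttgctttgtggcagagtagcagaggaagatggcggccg
That core is in the windows of 20% of the 30 tested proteasome genes with a promoter entry and of 14% of all 27025 genes in the table, expressed here or not.

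Of the β subunits that do not cut, Psmb3 was called lower. It measured 12.74, 12.73 and 12.45 in RE cells, against 12.96, 12.92 and 12.90 in Mig cells, and fell by 0.29 (SE 0.10, adjusted p = 0.0418). That call was lost with the authors' normalized values (-0.14) and without RE replicate 3 (-0.19), any 1 Mig array, any 1 RE+GM array or Mig+GM replicate 3. In RE+GM cells it measured 12.36, 12.40 and 12.40, against 12.75, 13.07 and 12.90 in Mig+GM cells, and fell by 0.52 (SE 0.10, adjusted p = 0.00122), with no overlap. Psmb1, Psmb2 and Psmb4 were not called, with changes of 0.12, 0.04 and -0.08 in RE cells and 0.24, -0.05 and -0.04 in RE+GM cells. The change of Psmb1 in RE+GM cells (adjusted p = 0.0847) was called higher with the authors' values, with the replicate block (adjusted p = 0.0456) and without RE+GM replicate 2 (0.33).

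**Figure D3:**
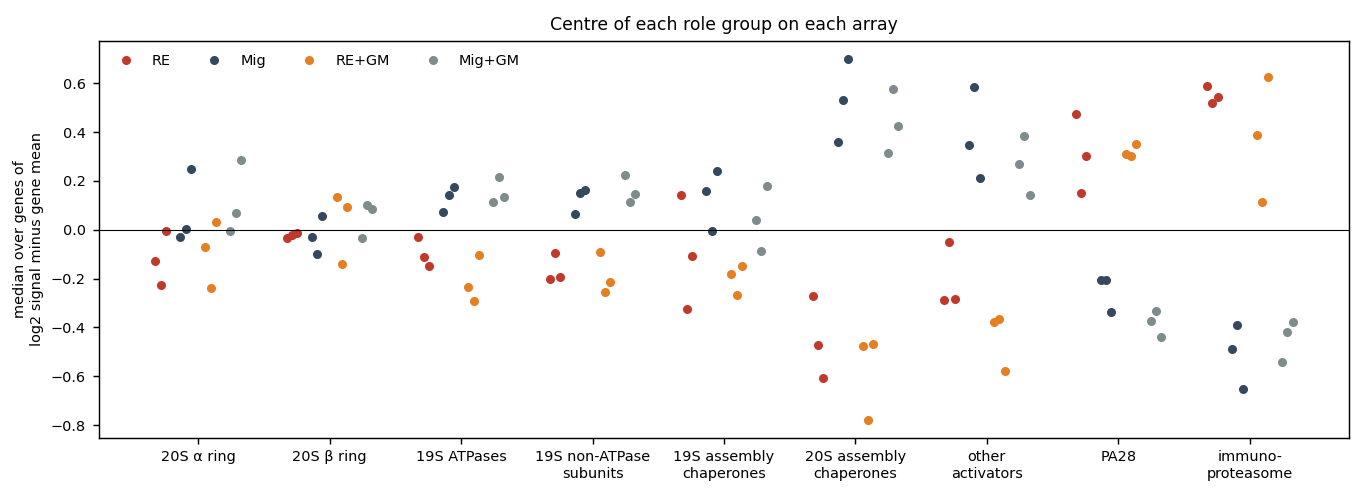
Centre of each role group on each array, the median over its genes of the log2 signal minus the gene's mean over all 12 arrays. For the 20S assembly chaperones the centre lies between -0.61 and -0.27 on RE arrays and between 0.36 and 0.70 on Mig arrays, while for the α ring RE and Mig arrays overlap.

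Across the 30 tested genes with a promoter entry the ETS core CCGGAA stood in the windows of 60%, against 16.7% of all 27025 genes. The share was 62.5% among the 8 of these called lower in both comparisons and 59.1% among the other 22. The NF-Y box CCAAT was in 33.3% of the 30, against 41.1% of all genes, the E-box CACGTG in 10%, against 8.09%, and the interferon response core in 10%, against 3.99%. The 27025 genes are all those of the promoter table, expressed here or not, while the 30 were above background on all arrays. The shares thus come from unlike sets, and no share over expressed genes was taken. Both strands were searched, and the ETS core overlaps its own reverse complement in Psmd4. Such matches describe the letters of these windows and no binding.

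Of the PA28 genes Psme1 went the other way in both comparisons, and Psme2 was called higher in RE+GM cells only. PA28 is the activator that interferon induces together with the immunoproteasome. Psme1 measured 12.33, 11.99 and 12.04 in RE cells, against 11.26, 11.28 and 11.06 in Mig cells, and 11.81, 11.90 and 11.81 in RE+GM cells, against 11.00, 11.13 and 11.01 in Mig+GM cells. No arrays overlapped, and Psme1 rose by 0.92 (SE 0.10, adjusted p = 3.5e-05) and by 0.79 (SE 0.10, adjusted p = 6.82e-05), 1.89-fold and 1.73-fold. Psme2 measured 9.66, 9.35 and 9.61 in RE cells, against 9.37, 9.35 and 9.31 in Mig cells, where the groups overlapped (0.20, SE 0.09, adjusted p = 0.126). It was called higher without RE replicate 2 (0.29). In RE+GM cells it measured 9.86, 9.75 and 9.94, against 9.30, 9.25 and 9.15 in Mig+GM cells, and rose by 0.61 (SE 0.09, adjusted p = 0.000239). The difference of Psme2 between the comparisons was 0.42 (SE 0.13) and did not pass the test (adjusted p = 0.319). Under median scaling the median change of the 2 genes in RE cells was 0.13, against 0.56 with quantiles, and Psme1 was still called higher.

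The promoter of Psme1 lies at chr14:55578244-55578543 on the plus strand and is shown as that of the pattern gene with the largest rise. The capitals mark TTTCGCTTTC, a match on the reverse strand to the interferon response core that begins 9 bases after the start.
Psme1: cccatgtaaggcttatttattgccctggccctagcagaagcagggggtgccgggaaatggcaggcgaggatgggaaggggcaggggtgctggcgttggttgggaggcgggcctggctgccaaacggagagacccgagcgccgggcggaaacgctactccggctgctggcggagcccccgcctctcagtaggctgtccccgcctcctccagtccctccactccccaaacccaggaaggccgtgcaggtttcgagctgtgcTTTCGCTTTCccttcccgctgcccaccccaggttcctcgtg
The core was in the windows of 1 of the 5 PA28 and immunoproteasome genes.

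The immunoproteasome genes rose in both comparisons, Psmb8 1.93-fold and 1.67-fold, Psmb9 2.82-fold and 2.55-fold, and Psmb10 1.76-fold and 1.49-fold. The call of Psmb10 in RE cells ended under median scaling (log2 change 0.37, adjusted p = 0.105). Each was set against the constitutive subunit that it replaces, as a difference of log2 signals within an array, where the level depends on the 2 probes and only its shift between groups is read. Psmb8 minus Psmb5 averaged -1.18 ± 0.09 in RE cells, against -2.35 ± 0.02 in Mig cells (SD, n = 3), a shift of 1.17 or 2.25-fold, and with GM-CSF the shift was 1.11. Psmb9 minus Psmb6 shifted by 1.23 in RE cells and by 1.17 in RE+GM cells. Psmb10 minus Psmb7 shifted by 0.88 and by 0.50. In all 6 comparisons the arrays with the fusion lay above all those without it, and the exact two-sided permutation test gave p = 0.1 for each, the smallest that 3 arrays against 3 allow (0.1 after Benjamini-Hochberg adjustment over the 6).

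**Figure D4:**
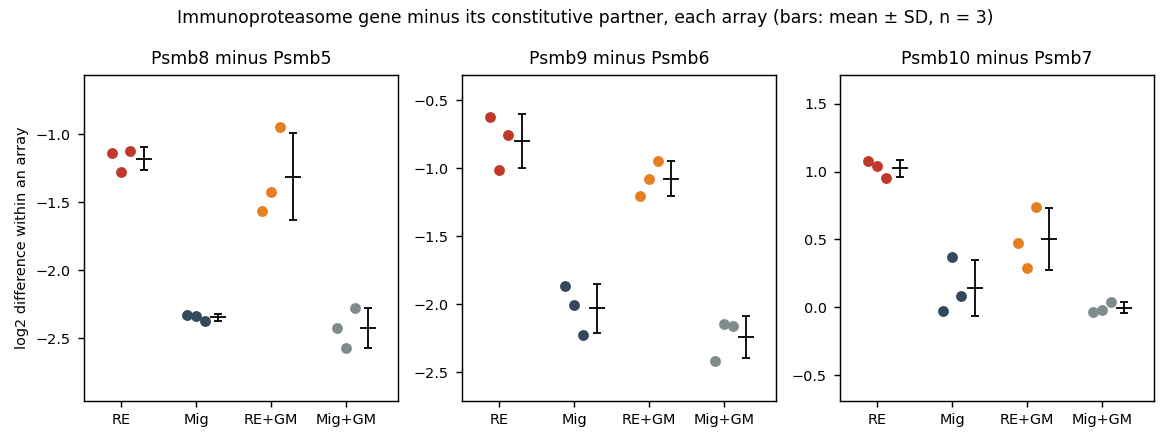
Log2 signal of each immunoproteasome gene minus that of the constitutive subunit it replaces, within each array, with the mean and SD of the 3 arrays of a group. In every panel the RE points lie above the Mig points and the RE+GM points above the Mig+GM points, by 0.50 to 1.23 on average.

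GM-CSF gave no call among the proteasome genes. In Mig+GM against Mig cells 0 of 36 genes passed limma's test and 0 had an unadjusted p under 0.05. Of all 12102 units 1 (0.00826%) was called and 642 had an unadjusted p under 0.05. The changes of the 36 genes ran from -0.21 to 0.20. In RE+GM against RE cells 0 of 36 were called, where 2.26% of all units were (0.364% lower and 1.9% higher). An unadjusted p under 0.05 was found for 2 of the 36 genes, where 2178 of all 12102 units had one. The 2 genes were Psmb3 (-0.25, adjusted p = 0.216) and Psmd11 (0.23, adjusted p = 0.199). The median of the 36 genes was -0.07, with the sign turned under median scaling (0.19). The replicate block called Psme4 lower in RE+GM than in RE cells (-0.32, adjusted p = 0.028, and 0.291 without the block). Standard errors were 0.09 to 0.38 per gene. A change must reach several standard errors to pass after adjustment over all units, so changes well above the standard error could be missed with these arrays. The PA28 genes were not called either, with Psme1 at -0.16 in Mig+GM and -0.28 in RE+GM cells and Psme2 at -0.11 and 0.31.

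The interaction, the change with the fusion in GM-CSF minus the change without it, was called for 0 of 36 genes by limma, against 0.264% of all units. At an unadjusted p under 0.05 stood 2 genes, Psmc4 (-0.42, SE 0.19, adjusted p = 0.533) and Psmd11 (0.36, SE 0.12, adjusted p = 0.363). Of all 12102 units 1124 stood there. The median of the 36 genes in the interaction was -0.08, and that of all units -0.03, and both turned under median scaling, to 0.34 and 0.14. The genes called in 1 of the 2 fusion comparisons were thus not shown to respond differently to the fusion with and without GM-CSF.

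**Figure D5:**
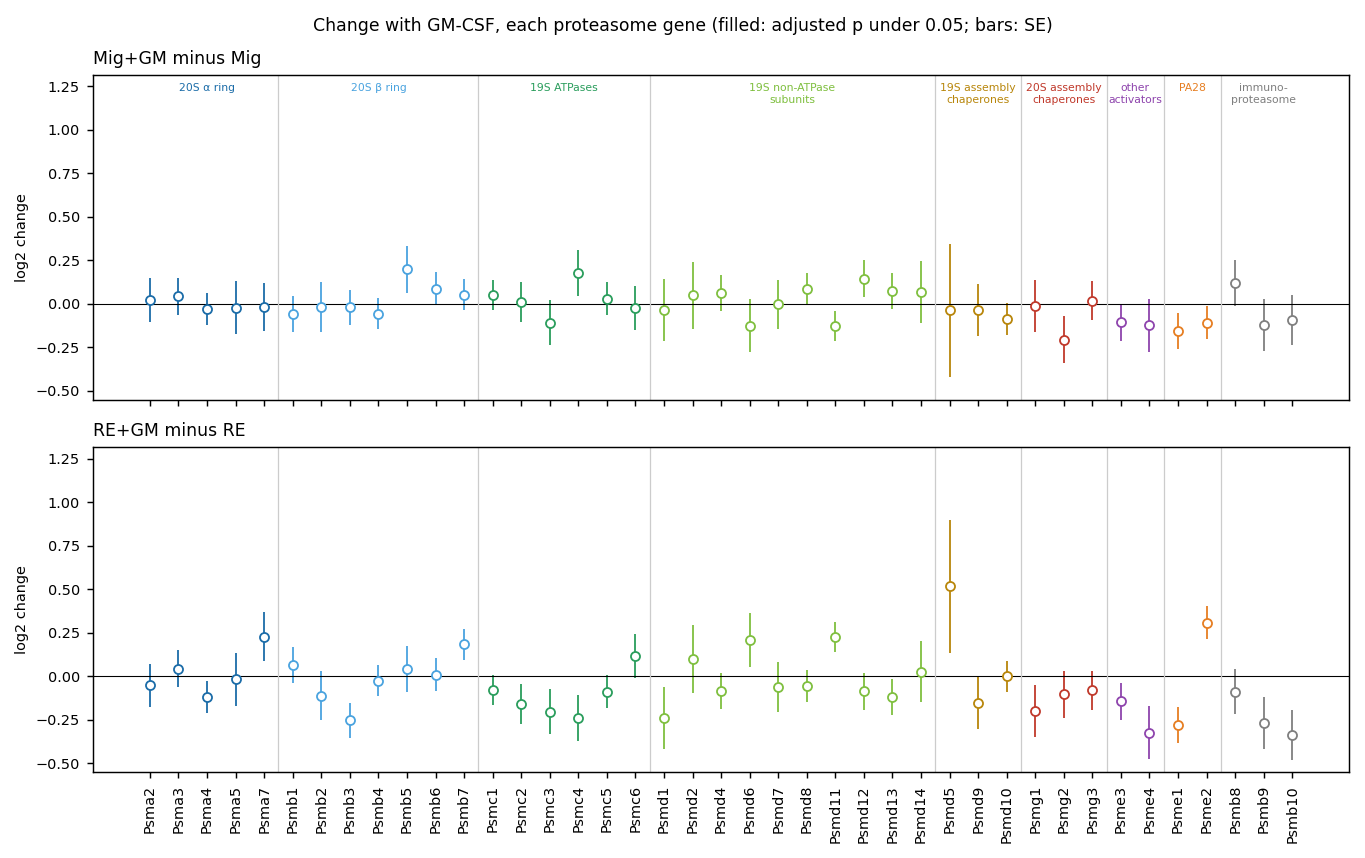
Log2 change with GM-CSF of each proteasome gene in Mig+GM minus Mig cells (upper panel) and RE+GM minus RE cells (lower panel), with bars of 1 SE. All points are open, which means an adjusted p of 0.05 or more, and apart from Psmd5 they lie between -0.34 and 0.31.

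Probes of a gene mostly had the same sign. Of the 51 probes of the 7 groups that passed the filter 16 were called lower and 1 higher in RE cells, where 19.8% of all 16368 kept probes were lower and 15.9% higher, and 21 lower and 0 higher in RE+GM cells, where 22.4% were lower and 18.2% higher. Of the 13 genes with several kept probes all probes had the same sign in 11 without GM-CSF and in 10 with it, and 0 genes had calls in opposite directions. The 2 genes that share the name pattern differed from each other. Psmc3ip, a factor of meiotic recombination, fell by 1.04 (SE 0.16, adjusted p = 0.000279) and by 1.47 (SE 0.16, adjusted p = 1.64e-05). Psme3ip1, a partner of PA28γ, changed by -0.21 and -0.23 and was not called.

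Other genes of the pathway were read from lists that do not overlap with the proteasome genes. Of 9 tested helpers and shuttle factors 4 were lower and 1 higher in RE cells and 5 lower and 1 higher in RE+GM cells. The shares lower were 44.4% and 55.6%, where 20.2% and 23.4% of all units were lower. The share higher was 11.1% in each, where 17.6% and 18.8% of all units were higher. Uchl5, a deubiquitinase on the cap, fell by 1.08 and by 1.02 (adjusted p = 5.4e-05 and 5.74e-05). Usp14, the other deubiquitinase on the cap, fell by 0.74 and by 1.08. The shuttle factors Ubqln1 and Rad23b, which carry ubiquitinated proteins to the cap, fell by 0.54 and 0.49 in RE cells and by 0.64 and 0.63 in RE+GM cells. Both calls of Ubqln1 ended when its kept probes were averaged (-0.32, adjusted p = 0.104, and -0.26, adjusted p = 0.176). Fbxo7 was called lower in RE+GM cells (-0.33, adjusted p = 0.0334) and not in RE cells (-0.05, adjusted p = 0.781), and its difference between the comparisons did not pass the test (adjusted p = 0.64). The call ended under median scaling (-0.22, adjusted p = 0.241) and with the authors' values (-0.25, adjusted p = 0.112). Pomp, the maturation factor of the 20S core, was the gene called higher (0.37 and 0.44), a call in RE cells that median scaling ended with the opposite sign (-0.06, adjusted p = 0.791). Usp14, Fbxo7 and Pomp were chosen after their values were seen.

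Of 14 genes around p97, the ATPase that extracts proteins for the proteasome, 2 were higher and 1 lower in RE cells and 5 higher and 3 lower in RE+GM cells. In RE cells these shares, 14.3% higher and 7.14% lower, were below those of all units (17.6% and 20.2%). In RE+GM cells they were 35.7% higher and 21.4% lower, where 18.8% and 23.4% of all units were. Syvn1, the ubiquitin ligase of the endoplasmic reticulum, rose by 1.29 and by 1.34 (adjusted p = 1.46e-05 and 7.02e-06). Ubxn6, an adaptor of p97, rose by 0.67, which median scaling no longer called (0.28, adjusted p = 0.177), and by 0.82, while the adaptor Faf1 fell by 0.38, a call that the authors' values ended (-0.25, adjusted p = 0.0549), and by 0.73. The other calls with GM-CSF, named after their values were seen, were Derl1, Derl2 and Nploc4 higher (0.31, 0.57 and 0.36) and Plaa and Npepl1 lower (-0.34 and -0.69). Median scaling ended the calls of Nploc4 (0.39, adjusted p = 0.0833) and Plaa (-0.32, adjusted p = 0.12). Nploc4 was also called higher in RE cells with the replicate block (0.23, adjusted p = 0.0349). Of the ubiquitin and E1 genes only Uba6 and Uba3 were tested, and neither was called (-0.17 and 0.07 in RE cells, -0.14 and 0.05 in RE+GM cells).

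NFE2L1 is the factor that raises transcription of proteasome genes when the proteasome is inhibited, and NFE2L2 is its relative in the oxidative stress response. Of 13 genes of these factors and their targets 2 were higher and 4 lower in RE cells and 2 higher and 2 lower in RE+GM cells. In RE cells the shares were 15.4% higher and 30.8% lower, where 17.6% and 20.2% of all units were. In RE+GM cells both shares were 15.4%, below those of all units (18.8% higher and 23.4% lower). Nfe2l1 rose by 1.24 (SE 0.25, adjusted p = 0.00175) and by 0.81 (SE 0.25, adjusted p = 0.0187), a call in RE+GM cells that was lost without RE+GM replicate 2 (0.66) or Mig+GM replicate 3 (0.55). Nqo1 and Srxn1, targets of NFE2L2, fell by 1.08 and 0.72 in RE cells and were not called in RE+GM cells (-0.17 and -0.25), although the replicate block called Srxn1 there (adjusted p = 0.0236). Their differences between the comparisons did not pass the test (adjusted p = 0.327 and 0.502). The other called genes, named after their values were seen, were Hmox1, which rose by 0.83 and by 0.94, Gclm, which fell by 1.41 in RE cells and fell by 1.81 in RE+GM cells, and Txnrd1, with changes of -0.49 and -0.53, neither called with the authors' values (adjusted p = 0.0886 and 0.0514). Gclc was called lower with the replicate block in both comparisons (-0.35 and -0.27, adjusted p = 0.0121 and 0.0425).

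The chaperonin CCT, which folds actin and tubulin, and the COP9 signalosome with eIF3, complexes built on the same folds as the lid, served for comparison. Of the 8 CCT genes 7 were lower in RE cells and 8 in RE+GM cells, with medians of -0.57 and -0.70. Cct6a fell by 0.95 and by 0.91, Tcp1 by 0.81 and by 0.86, and Cct7 by 0.44 and by 0.73, and the gene not called in RE cells, Cct5, was called with the replicate block (-0.48, adjusted p = 0.0643 without it and 0.00279 with it). Of 18 COP9 and eIF3 genes 6 were lower in RE cells and 12 in RE+GM cells, with medians of -0.23 and -0.45. The shares lower were 87.5% and 100% for CCT and 33.3% and 66.7% for COP9 and eIF3, against 20.2% and 23.4% of all units. Eif3a, Eif3l and Eif3i fell by 0.86, 0.47 and 0.51 in RE cells and by 0.78, 0.77 and 0.56 in RE+GM cells. The authors' values ended the call of Eif3l in RE cells (-0.36, adjusted p = 0.0642) and that of Eif3i in RE+GM cells (-0.32, adjusted p = 0.0721). These complexes thus held lower calls as well, and no test of a difference between lists was made.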

How the data were processed

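Signal intensity of 25697 Illumina probes on 12 arrays was used as deposited before normalization, with the optical background still in it and with no detection p-values. A table of intensity that the authors had normalized (method not given in the sources used here) served as an alternative. Probes were named from GEO's platform annotation, in which 23978 have 1 gene, 0 several and 1719 none. In limma 3.58.1 (R 4.3.3) the signals went through normexp (offset 50) and quantile normalization, and log2 was taken. The offset makes changes of dim probes smaller. In place of the planned detection p-values, probes were kept if above the array's own background (mode and spread of its low signals, p under 0.05) on at least 3 arrays, a filter chosen after the files were seen, which kept 16368 probes. This gave 12102 units, which are 11120 genes, each by its kept probe with the highest mean, and 982 probes with no gene name.

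All 12 arrays entered 1 model of group means (lmFit and eBayes, two-sided tests), with Benjamini-Hochberg adjustment over all units in each of 5 contrasts, and the fit was tested on simulated data. Calls are at an adjusted p under 0.05, changes are on the log2 scale, and errors beside them are standard errors of the model. Same-numbered arrays deviated together from their group means by correlations of 0.22, 0.12 and 0.47 between RE and Mig, of 0.31, 0.22 and 0.43 between RE+GM and Mig+GM, of 0.62, 0.61 and 0.69 between Mig+GM and Mig, and of 0.16, 0.32 and 0.33 between RE+GM and RE, all over 0.1, so the numbers were taken to pair these samples and the replicate block is given where it changes a call. Over all pairs of groups, RE with Mig+GM and Mig with RE+GM included, the 18 same-numbered pairs gave 0.085 to 0.69 (median 0.32). The 36 differently numbered pairs gave -0.47 to 0.26 (median -0.17), so the ranges overlap. Slide and scan date were not used here. The members, role groups, lists and tests were chosen with earlier results of these data known. Full values were given to the catalytic genes, to the 2 genes of each role group with the largest change in RE against Mig, to members called against the majority and to PA28, and from each other list the 3 genes with the smallest p in RE against Mig were named. Psmg3, other genes named beyond these and the promoters printed were chosen after their values were seen. Alternatives were the scaling, the authors' values, the background correction and its offset, the filter, the choice of probe, the block, the arrays fitted, the eBayes setting, a minimum fold of 1.5, and leaving out each array. Sequences are from RefSeq's promoter table, which held 30 of the 36 tested genes, without Psmb1, Psmb2, Psmb7, Psmc3, Psmd7 and Psmg2. Psma8, Psmb11, Psmd3, Psmf1 and Psmg4 were not analysed here.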

Additional observations from a re-analysis of the deposited data

How the results depend on the processing

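The count of proteasome genes lower in RE than in Mig cells was 14 of 36, and became 30 under median scaling, 8 with the authors' normalized values, 9 when only the arrays of the compared groups were fitted, 7 at a minimum change of 1.5-fold, 16 with the replicate block, and 8 to 14 with 1 array left out. The share of all units lower was 20.2%, and 28.5%, 17.1%, 17.3%, 12.1% and 22.9% under the first 5 of these alternatives. The counts of 8 and 9 are thus near the share of all units. The count higher was 1, with the block too, and became 0 under median scaling, with an offset of 16, with only the compared groups' arrays, with the trended and robust eBayes setting and at a minimum of 1.5-fold, and 0 to 2 with 1 array left out. For RE+GM against Mig+GM the 18 lower (23.4% of all units) became 7 at a minimum of 1.5-fold (15.1%), 19 with the block (25.8%) and 14 to 18 with 1 array left out, and the 0 higher became 3 with the authors' values, 1 with the block and 0 to 1 with 1 array left out. The count of 7 of 36 with GM-CSF at that minimum is near the share of all units. RE+GM against RE gave 1 lower with the block in place of 0; Mig+GM against Mig and the interaction stayed at 0 under all alternatives. Under median scaling the change of Psmb6 in RE cells turned to -0.18 and that of Psmc5 to -0.40, and in RE+GM against RE the medians turned to 0.19 over all 7 groups, 0.15 for the ATPases, 0.23 for the non-ATPase subunits, 0.28 for the 19S chaperones, 0.19 for the α ring, 0.11 for the 20S chaperones, 0.0054 for Psme3 and Psme4 and 0.034 for the immunoproteasome genes. The cause was not tested. The paired differences moved within 1.14 to 1.22 and 0.93 to 1.24 for Psmb8 minus Psmb5, 1.14 to 1.34 and 1.08 to 1.23 for Psmb9 minus Psmb6, and 0.79 to 0.99 and 0.38 to 0.61 for Psmb10 minus Psmb7, with 1 array left out. The block changed no call of the proteasome genes other than those given with the results.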
